A study of Mus musculus with 12 samples.

Results

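The CC chemokine ligands described here are 8 small secreted proteins, encoded by Ccl2, Ccl3, Ccl4, Ccl5, Ccl6, Ccl7, Ccl9 and Ccl12, among the 30142 genes that could be named on the arrays. A member was taken from the probe sets with exactly 1 gene symbol, and each of the 8 genes had 1 such probe set. Of the 8, 7 passed the filter on dim genes and were tested, and Ccl12 did not pass. The arrays were run on total RNA of megakaryocytes, which shed platelets, differentiated in vitro from the bone marrow stem cells of C57BL/6 male mice. Both groups had 3 days of thrombopoietin at 100 ng/ml, a night in medium with 10% charcoal-stripped serum, and purification at day 4 on an albumin gradient. Each of 6 cultures was then divided, so that 1 portion had 100 nM dexamethasone, a synthetic glucocorticoid, for 6 h and the other its vehicle, which gives 6 arrays per treatment. Cultures are numbered here 1 to 6 by the replicate number of the labels, and the labels' sample descriptions number the same cultures 1, 4, 5, 6, 7 and 8. The animals' age, like the link of each culture to separate mice, was not given in the sources used here. If cultures shared mice, the p-values measure only how the treatment difference varied from culture to culture, not from mouse to mouse.

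CC chemokines carry neighbouring cysteines near their start and draw leukocytes towards the cells that release them by binding G protein-coupled receptors. Inflammatory members are usually low at rest and are induced through NF-kappaB and AP-1, and their messages are short-lived because AU-rich elements recruit decay proteins. Glucocorticoids are known to lower several of them in other cells, both by restraining these factors and by speeding decay of the message. Platelets store and release some of these proteins, so megakaryocytes are one place where their messages can be made.

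Values are the authors' deposited log2 levels, so a difference of 1 is a doubling on that scale. Background was read from negative control probe sets, whose median ranged over the 12 arrays from 6.15 to 6.39 and whose 95th percentile ranged from 9.98 to 10.39. No member reached that 95th percentile on any vehicle array. The negative control median itself lay above the median of all probe sets (5.57 to 5.67) on each array. Among named genes, the mean percentile in vehicle was 81.9 for Ccl2, 70.2 for Ccl5 and 16.1 for Ccl12. Changes of the dimmest members may be understated. The label of the cells was checked against markers: all 11 named megakaryocyte markers exceeded the negative control median throughout, with a median level of 15.85, and Pf4 (platelet factor 4) was 18.94 ± 0.03 in vehicle (SD, n = 6). In dexamethasone 1 of the 11 fell and 1 rose: Tubb1, the platelet beta tubulin, which fell by 1.14 (SE 0.06), and Gp9, a subunit of the von Willebrand factor receptor, which rose by 0.44 (SE 0.06). A gene was called at an adjusted p under 0.05 in a limma fit over 24265 genes with culture as a block. Of all genes tested, 12.0% were called, 7.39% as higher (1794 genes) and 4.56% as lower (1106 genes) in dexamethasone. That balance depends on scaling, with 1417 higher and 1738 lower after quantile normalization and 1718 and 726 after centring on array medians.

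After 6 h of dexamethasone, Ccl2, Ccl5 and Ccl6 had fallen, and no member had risen. Ccl2, which attracts monocytes, fell by 0.70 on the log2 scale (38.4% below vehicle). The platelet-stored T cell and monocyte attractant Ccl5 fell by 0.38 and the macrophage attractant Ccl6 by 0.25, the latter with 11 of 12 arrays not above the negative control median. Ccl3, Ccl4, Ccl7 and Ccl9 did not pass the threshold, with differences between -0.15 and 0.04. Thus 3 of 7 tested members were called lower, beside the 4.56% of all genes, and only Ccl2 (1 of 7) was called without the culture block or with all probe sets fitted. The count of members called higher was 0, also at an unadjusted p under 0.05 in limma. The median change of the 7 was -0.15, and -0.01 over all genes tested, and 6 of the 7 lay below vehicle by sign, beside 54.3% of all genes. The members were chosen with earlier results of these data known, so these comparisons describe the 7 and test nothing.

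**Figure D1:**
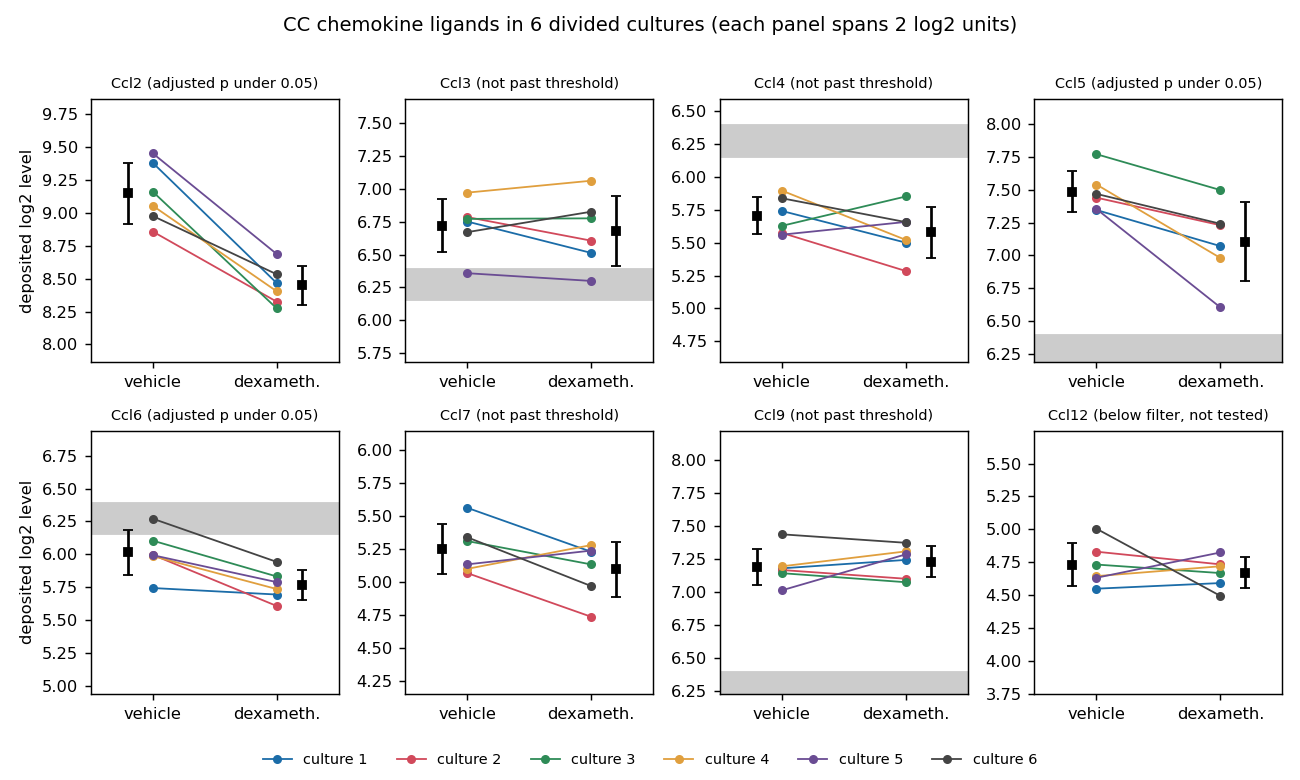
Deposited log2 level of each CC chemokine ligand in vehicle and dexamethasone, 1 line per culture, with squares for the group mean and bars for the SD (n = 6). The grey band is the range of the negative control median, 6.15 to 6.39; it lies below the Ccl2 panel and above the Ccl7 and Ccl12 panels. The lines for Ccl2, Ccl5 and Ccl6 go down in all 6 cultures.

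The genes lie on mouse chromosome 11 in separate groups. In RefSeq's order for GRCm38.p6, Ccl2, Ccl7, Ccl11, Ccl12, Ccl8 and Ccl1 follow each other in the first group. After 52 other annotated genes come Ccl5, Ccl9, Ccl6, Ccl3 and Ccl4. The build behind the array's own annotation was not given in the sources used here, so no gene coordinates are set beside the values.

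Among the monocyte chemoattractant group, which signals mainly through the receptor Ccr2, Ccl2 moved most. Its log2 level in vehicle had a lowest value of 8.86, a median of 9.11 and a highest of 9.45, and in dexamethasone a lowest of 8.27, a median of 8.44 and a highest of 8.69. The groups therefore did not overlap, which held in the same direction for 2.63% of all genes tested. The mean went from 9.15 ± 0.23 to 8.45 ± 0.15 (SD, n = 6), a 1.62-fold difference. The change was -0.70 (SE 0.07, 95% interval -0.86 to -0.54), with an adjusted p of 0.00029 in limma, and 41 of the 24265 genes had a larger fall. Culture by culture, Ccl2 differed from its vehicle portion by -0.91, -0.53, -0.89, -0.65, -0.77 and -0.44 in cultures 1 to 6. The smallest of these falls was thus larger than the SD between vehicle cultures. Ccl2 lay above the median of the negative controls on each array.

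Ccl7, the next gene to Ccl2 in the RefSeq order and a ligand of several receptors of monocytes and eosinophils, stayed within background. It ran from 5.07 to 5.56 in vehicle (median 5.22) and from 4.74 to 5.28 in dexamethasone (median 5.18), and exceeded the negative control median on no array. The groups overlapped, and 4 of 6 cultures were lower. The limma change was -0.15 (SE 0.08, 95% interval -0.35 to 0.04, adjusted p = 0.279). That interval reaches a fall of 0.35 and does not show that Ccl7 stayed level.

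Ccl12, another mouse Ccr2 ligand, was also within background. It ran from 4.55 to 5.00 in vehicle (median 4.69) and from 4.49 to 4.82 in dexamethasone (median 4.69), and it failed the filter, so it has no test. Its mean difference was -0.06, with 3 cultures lower and 3 higher. Its signal was under that of the negative controls (median) on each array, so it gives only an upper bound.

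Ccl5, a ligand of Ccr1 and Ccr3 that platelets carry in their alpha granules, lay above the median of the negative controls on each array. In vehicle it had a lowest value of 7.35, a median of 7.45 and a highest of 7.77. In dexamethasone these were 6.60, 7.15 and 7.50, so the groups overlapped although each culture was lower than its own vehicle portion. Being lower in 6 of 6 cultures held for 8.32% of all genes tested. The mean went from 7.49 ± 0.16 to 7.10 ± 0.30, a 1.30-fold difference, and the change was -0.38 (SE 0.08, 95% interval -0.56 to -0.20, adjusted p = 0.0146 in limma). Cultures 5 and 4 had the largest falls, -0.75 and -0.56, and the other 4 lay between -0.27 and -0.21. Without culture 5 the change was -0.31 (adjusted p = 0.0242). Without the culture block the same change had an adjusted p of 0.067, and when unnamed and control probe sets were fitted as well it was 0.068.

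Ccl6 and Ccl9 lie 1 annotated gene apart, act mainly on the receptor Ccr1, and are members of a branch of the family with an extended start of the protein that is found in mice. They are set side by side because Ccl6 was called and Ccl9 was not. RefSeq's promoter table (GRCm38.p6) held 4 of the 8 members, Ccl3, Ccl6, Ccl9 and Ccl12, and the stretches of Ccl6 and Ccl9 are printed, each 250 bases before to 50 after the start. Both are on the minus strand of chromosome 11, Ccl6 at chr11:83593038-83593337 and Ccl9 at chr11:83578587-83578886, and are given 5′ to 3′ with motif matches in capitals.
Ccl6: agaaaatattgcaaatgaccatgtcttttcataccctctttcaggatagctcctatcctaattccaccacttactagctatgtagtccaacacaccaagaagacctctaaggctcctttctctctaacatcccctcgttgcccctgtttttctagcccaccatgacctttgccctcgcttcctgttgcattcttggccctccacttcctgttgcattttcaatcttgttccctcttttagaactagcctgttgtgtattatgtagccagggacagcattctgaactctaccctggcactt
Ccl9: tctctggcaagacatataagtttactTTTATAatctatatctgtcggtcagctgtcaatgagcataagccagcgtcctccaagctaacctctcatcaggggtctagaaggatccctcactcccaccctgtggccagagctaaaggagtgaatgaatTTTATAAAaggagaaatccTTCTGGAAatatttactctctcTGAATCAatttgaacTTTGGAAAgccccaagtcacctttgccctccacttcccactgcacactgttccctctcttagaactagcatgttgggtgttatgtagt

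The search covered both strands for a TATA box (TATAAA), a GC box (GGGCGG), an AP-1 site (TGANTCA), a C/EBP site (TTNCNNAA), an NF-kappaB site and a full glucocorticoid response element. In the Ccl6 stretch none of these letters matched. The Ccl9 stretch held the TATA letters once on its own strand, 92 bases before the start, and on the other strand at 224 and at 94, the last overlapping the first. It also held a match to the AP-1 letters 53 bases before the start, TGAATCA, where the N of the search stands for any base. C/EBP matches lay at 75 and 38. Of all 32851 promoter stretches of this length, 13.6% held the TATA letters, 7.81% the AP-1 letters, 40.7% the C/EBP letters, 35.7% the GC box, 4.01% the NF-kappaB letters and 0.475% the full response element. A local alignment placed 58 identical bases in 67 aligned ones between the Ccl6 and Ccl9 stretches (86.6%). Of the promoters not printed, that of Ccl12 held a TATA match 31 bases before the start and that of Ccl3 a C/EBP match at 100. No window of these 4 held the NF-kappaB, GC box or full response element letters. A missing match says only that these letters are not in this window.

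Ccl6 ran from 5.74 to 6.27 in vehicle (median 5.99) and from 5.61 to 5.94 in dexamethasone (median 5.76). The groups overlapped, and each culture was lower than its vehicle portion, by as little as 0.05 in culture 1 and as much as 0.39 in culture 2. The mean went from 6.02 ± 0.17 to 5.77 ± 0.12, and the change was -0.25 (SE 0.05, 95% interval -0.37 to -0.13, adjusted p = 0.0169 in limma). Only 1 of 6 vehicle arrays and 0 of 6 dexamethasone arrays lay above the negative control median, so this call rests on values within background. With values floored at that median the difference was 0.03 (adjusted p = 0.637). The floor replaced all but 1 of the Ccl6 values, so that setting could not test the fall. Leaving out culture 3, 4 or 6 gave adjusted p of 0.0526, 0.051 and 0.053, dropping the culture block 0.0656, and fitting all probe sets 0.0823.

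Ccl9 was above the median of the negative controls on each array and moved little. It ran from 7.01 to 7.44 in vehicle (median 7.17) and from 7.07 to 7.37 in dexamethasone (median 7.26), with 3 cultures lower and 3 higher. The change was 0.04 (SE 0.06, 95% interval -0.09 to 0.17, adjusted p = 0.682), and after quantile normalization its sign turned (-0.0047). A fall as large as that of Ccl6 (0.25) lies outside its interval.

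Ccl3 and Ccl4 are the macrophage inflammatory proteins, and Ccl3 is also known as a brake on cycling of hematopoietic stem cells. Ccl3 ran from 6.36 to 6.97 in vehicle (median 6.76) and from 6.30 to 7.06 in dexamethasone (median 6.69). Culture 4 was highest and culture 5 lowest in both portions, and the spread between cultures was far wider than the mean difference of -0.04 (SE 0.06, 95% interval -0.18 to 0.10, adjusted p = 0.733). Ccl3 lay above the negative control median on 6 of 6 vehicle and 5 of 6 dexamethasone arrays.

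Ccl4 ran from 5.56 to 5.90 in vehicle (median 5.68) and from 5.28 to 5.85 in dexamethasone (median 5.59), under the negative control median throughout. It was lower in 4 of 6 cultures, with a change of -0.13 (SE 0.08, 95% interval -0.31 to 0.06, adjusted p = 0.359). Its groups overlapped, and the interval still allows a fall of 0.31.

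The cultures differed in which member fell most. Ccl2 had the largest fall of the 8 in cultures 1 to 5, and in culture 6 it was Ccl12 (-0.51), whose values are within background. All 8 members were lower in culture 2, 7 in culture 6, 6 in cultures 1 and 3, and 4 in cultures 4 and 5. The share of all genes lower in each culture was not computed, so these counts say nothing particular to the family. Array medians also differed between portions, from 5.67 in vehicle to 5.60 in dexamethasone in culture 2 and from 5.58 to 5.61 in culture 5. Culture 5 combined large falls of Ccl2 (-0.77) and Ccl5 (-0.75) with the highest rises of Ccl9 (0.27) and Ccl12 (0.19). Within culture 5 the members therefore did not move alike. The cell portions are bulk samples, in which fewer cells of a type and less RNA per cell cannot be told apart.

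**Figure D2:**
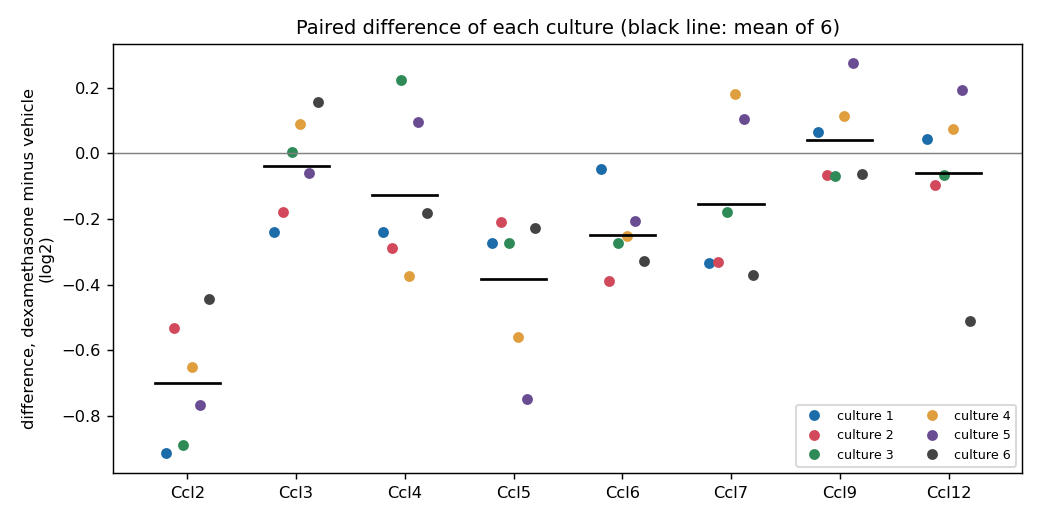
Difference between the dexamethasone and vehicle portions of each culture (log2), 1 point per culture and a black line for the mean. All 6 points lie below 0 for Ccl2 (-0.91 to -0.44), Ccl5 (-0.75 to -0.21) and Ccl6 (-0.39 to -0.05), and on both sides of 0 for the other 5 ligands.

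Of 12 remaining CC ligands with a named probe set, 10 were tested and 0 passed in limma, beside 12.0% of all genes tested. At an unadjusted p under 0.05 there were 0 higher and 1 lower, and that was the eosinophil attractant Ccl11 (-0.18, adjusted p = 0.168), whose gene lies between Ccl7 and Ccl12. Ccl17, a T cell attractant, was 6.72 ± 0.22 and 6.77 ± 0.31, and Ccl25, which guides thymocytes, was 7.01 ± 0.08 and 7.09 ± 0.13. These were the only ones that exceeded the negative control median on each array, while 8 of the 12 never did. Their median change was -0.0048. Ccl22, an attractant of regulatory T cells, failed the filter and was not tested. It was 5.00 ± 0.22 and 4.65 ± 0.07 (-0.35), lower in 6 of 6 cultures and never above the negative control median. With no filter its adjusted p was 0.0259 in limma, and with all probe sets fitted 0.0847.

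**Figure D3:**
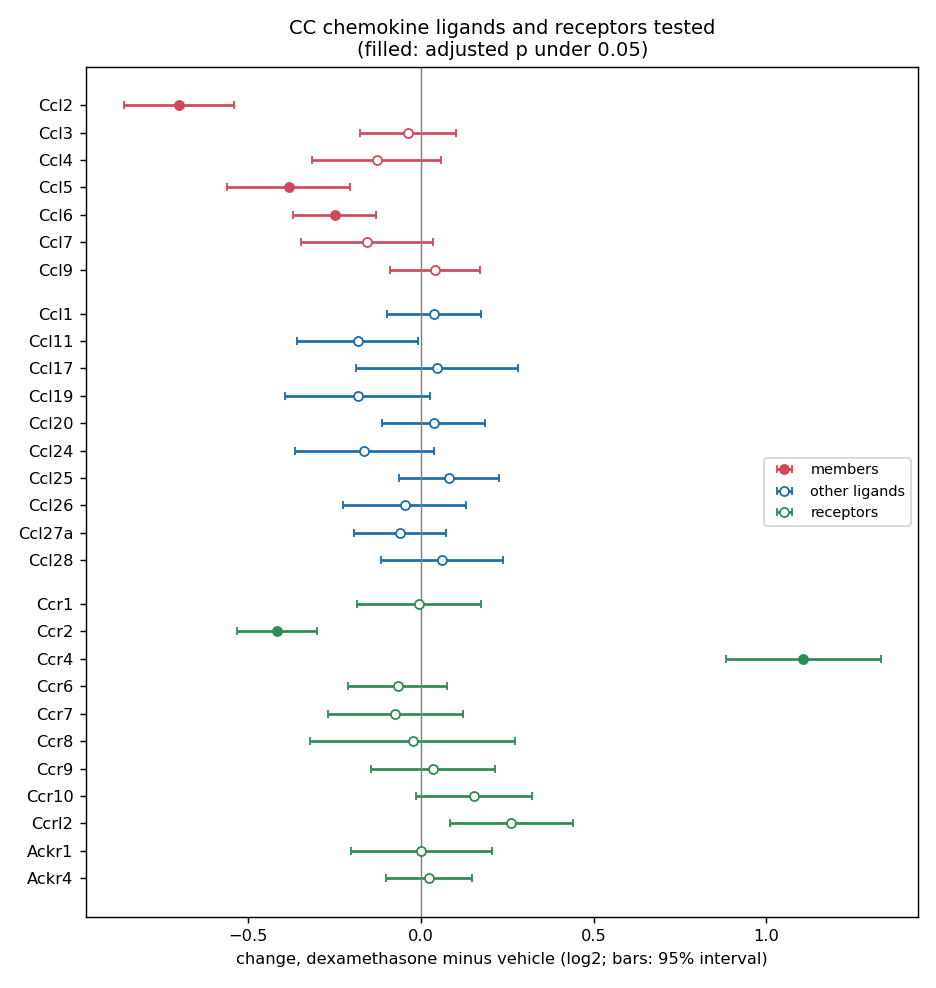
Change of each tested CC ligand and receptor (log2, dexamethasone minus vehicle, limma with culture as a block), with 95% intervals. Filled points are past an adjusted p of 0.05: Ccl2, Ccl5, Ccl6 and Ccr2 lie left of 0, and Ccr4 (1.11) lies right of it. Ccr4 passed the filter only through its dexamethasone arrays.

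Among CC receptors and the atypical receptors that scavenge or present these ligands, 11 of 13 named genes were tested, 1 fell and 1 rose. Over all genes tested, 4.56% were called lower and 7.39% higher. Ccr2, the receptor of Ccl2, Ccl7 and Ccl12, ran from 6.22 to 6.63 in vehicle and from 5.88 to 6.20 in dexamethasone, without overlap. It fell by 0.42 (SE 0.05, adjusted p = 0.000963), and lay above the negative control median on 6 of 6 vehicle and 0 of 6 dexamethasone arrays. With values floored there its adjusted p was 0.0806. Ccr4, the receptor of Ccl17 and Ccl22, rose by 1.11 (SE 0.10, adjusted p = 0.000147) from 4.26 ± 0.15 to 5.36 ± 0.26, never exceeding the negative control median, and it was not tested under both stricter filters or with the floor. Ccr1, the receptor of Ccl3, Ccl5, Ccl6 and Ccl9, was 4.79 ± 0.12 and 4.78 ± 0.20, also below it throughout. The atypical receptor Ackr1, which binds several CC ligands, was 8.53 ± 0.21 and 8.54 ± 0.16, and Ccr7, the receptor of Ccl19, was 7.64 ± 0.24 and 7.56 ± 0.13. Ackr2 is not analysed here.

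The list of NF-kappaB and AP-1 factors and their inhibitors, with other factors such as Cebpb, holds genes that drive or restrain transcription of inflammatory chemokines. Of its 18 tested genes, 3 rose, 1 fell and 14 did not pass, beside 7.39% of all genes called higher and 4.56% lower. Tnfaip3, an inhibitor of NF-kappaB signalling, rose by 0.72 (SE 0.07), Nfkbia, which holds NF-kappaB in the cytoplasm, by 0.42 (SE 0.07), and the transcription factor Cebpb by 0.31 (SE 0.07). Rel, a subunit of NF-kappaB, fell by 0.24 on the log2 scale, with adjusted p = 0.0159 in limma. Rela, its widely expressed partner, was 12.03 ± 0.16 and 12.16 ± 0.08 and did not pass. The list's median change was 0.01, and -0.01 over all genes. The count of falls ran from 0 to 2 over the alternatives. Cebpb lost its call under 5 alternatives, among them leaving out culture 1, 3 or 4 (highest adjusted p 0.089). When Rel was tested without the culture block or with all probe sets fitted, it did not pass, and the highest adjusted p over all alternatives was 0.0824.

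Among regulators of cytokine message decay, listed together with Tnfaip3, 7 of 20 tested rose and 1 fell, with a median change of 0.10. Calls over all genes tested were 7.39% higher and 4.56% lower. Zfp36l2, which binds AU-rich elements and promotes decay, ran from 11.85 to 12.21 in vehicle and from 13.91 to 14.31 in dexamethasone, a 4.26-fold rise (2.09, SE 0.04, adjusted p = 3.31e-08). Its relatives Zfp36l1 and Zfp36 (tristetraprolin) rose by 0.75 (SE 0.07) and 0.30 (SE 0.07), the latter in 5 of 6 cultures. Dusp1, the phosphatase that switches off p38, a kinase that protects such messages, rose by 2.15 (SE 0.17), and the RNase family member Zc3h12c by 0.52 (SE 0.06). Cnot7, a deadenylase subunit, rose by 0.32. The rise of Tnfaip3, described above as an inhibitor of NF-kappaB signalling, is counted in this list too. The fall was that of Hnrnpd, an AU-rich element binding protein, by 0.34 (SE 0.05). Whether decay of any CC chemokine message differed was not tested, since the arrays measure levels only.

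Of the cytokines, receptors and adaptors that induce CC chemokines, 3 of 19 tested rose and 1 fell, with a median change of 0.03 (2 fell after quantile normalization). These counts stand beside 7.39% of all genes called higher and 4.56% lower. Interleukin 1 alpha, Il1a, fell by 1.13 (SE 0.05) from 13.68 ± 0.23 to 12.55 ± 0.19, without overlap. Its relative Il1b was 9.51 ± 0.08 and 9.57 ± 0.09, and Tnf, near background, was 6.66 ± 0.21 and 6.49 ± 0.09. The receptors Tnfrsf1a, Il1r1 and Tnfrsf1b rose by 0.37, 0.30 and 0.24, with adjusted p of 0.00455, 0.00455 and 0.0314 in limma. Tnfrsf1a was above the negative control median on 0 of 6 vehicle and 3 of 6 dexamethasone arrays, and with values floored there its adjusted p was 0.166. Il1r1 had an adjusted p of 0.0811 without the culture block, and Tnfrsf1b lost its call under 5 alternatives, among them leaving out culture 2, 3 or 4 (highest 0.123).

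**Figure D4:**
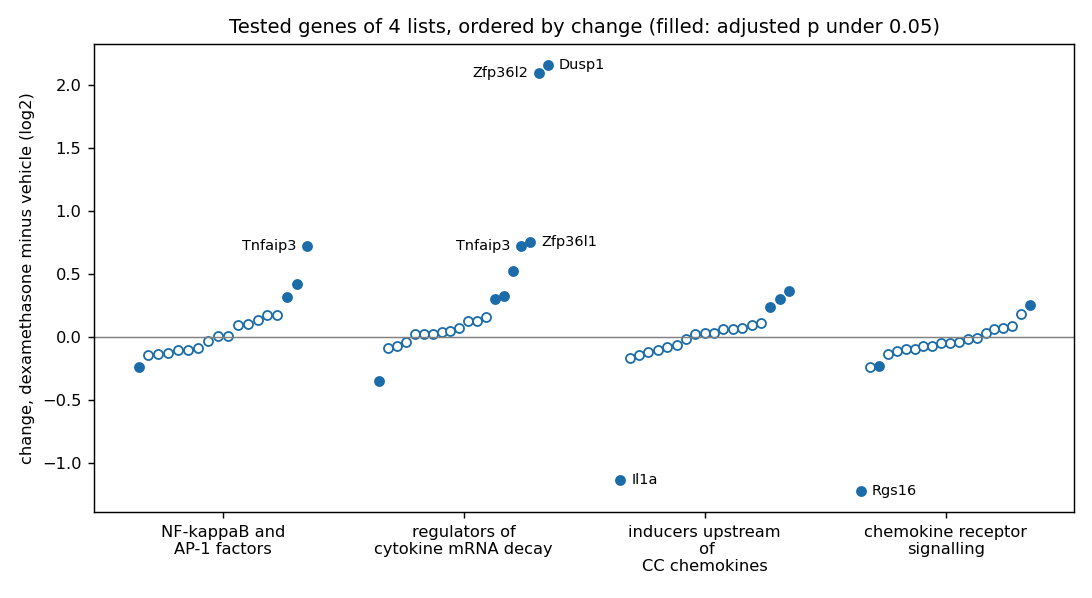
Change (log2, dexamethasone minus vehicle) of every tested gene in 4 lists, ordered by change within a list, with filled points past an adjusted p of 0.05 and names for called genes beyond 0.6 in size. Dusp1 (2.15) and Zfp36l2 (2.09) stand at the top and Rgs16 (-1.22) and Il1a (-1.13) at the bottom.

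In the signalling chain below chemokine receptors, 1 of 20 tested genes rose, 2 fell and 17 did not pass, with a median change of -0.05. Among all genes tested, 7.39% were called higher and 4.56% lower. The count of falls was 6 after quantile normalization and 1 to 3 under the other alternatives. Rgs16, which shortens G protein signals, fell by 1.22 (SE 0.12). Elmo1, a partner of the Rac activator Dock2, rose by 0.25 (SE 0.04). Vav1, another Rac activator, fell by 0.23 (SE 0.06, adjusted p = 0.041 in limma) in 5 of 6 cultures, a call that ended under 8 of 17 alternatives, among them leaving out any culture but 2 (highest adjusted p 0.145). The inhibitory G protein subunit Gnai2 was 15.53 ± 0.04 and 15.56 ± 0.09.

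The other large chemokine branch, the CXC ligands, had 3 of 15 tested genes lower and 0 higher in limma, with 0 higher at an unadjusted p under 0.05 as well. For all genes tested, the called shares were 4.56% lower and 7.39% higher. Cxcl3 fell by 2.29 (SE 0.12), Cxcl5 by 0.45 (SE 0.05) and Cxcl16 by 0.31 (SE 0.06), the first 2 being neutrophil attractants. Cxcl16 exceeded the negative control median on 5 of 6 vehicle and 0 of 6 dexamethasone arrays, and lost its call with values floored there (-0.16, adjusted p = 0.143) or with all probe sets fitted (0.0563). The count of CXC ligands lower ran from 2 to 5 over the alternatives, with 5 when culture 3 was left out.

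Markers of other cells that make or answer CC chemokines were examined beside these results. The counts of each marker list stand beside 7.39% of all genes called higher and 4.56% lower. Of 18 named monocyte and macrophage markers, 10 never exceeded the negative control median, among them Csf1r, Mrc1, C1qa, Cd14, Fcgr1 and Mertk. The 5 that exceeded it on each array were Lyz2, Lyz1 (mean 11.88 in vehicle), Ly6c2 (8.72), Cd68 (7.16) and Cx3cr1 (6.84). 1 of the 18 tested fell, Ccr2, and none rose (0 higher, and 3 higher and 3 lower at an unadjusted p under 0.05). Their summed level, the log2 of added linear values, was 17.32 to 17.60 in vehicle and 17.46 to 17.65 in dexamethasone. Such a sum mostly follows its brightest genes, here the lysozyme gene Lyz2 (17.46 ± 0.10 and 17.52 ± 0.06). Of 14 tested neutrophil markers, 4 fell and 2 rose, and their summed level was 11.91 to 14.56 in vehicle and 10.78 to 13.90 in dexamethasone, lower in 6 of 6 cultures. S100a9 fell by 0.77 and S100a8 by 0.51 there, with SDs between cultures of 1.01 and 1.19 in vehicle, and Camp fell by 0.49 and Ltf by 0.46. Mmp8, a neutrophil collagenase, rose by 0.47 (SE 0.07), as it did under all 17 alternatives, and Lcn2 rose by 0.20 with 1 of 12 arrays above the negative control median. Camp's call was lost under 1 alternative, that of S100a9 under 6 and that of S100a8 under 9 of 17. The part of these markers in the falls of Ccl2, Ccl5 and Ccl6 was not tested.

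Of 12 tested lymphocyte markers, 1 fell (Ighm, by 0.37) and 0 rose, beside 4.56% of all genes called lower and 7.39% higher. The summed level was 9.37 to 9.59 in vehicle and 9.38 to 9.53 in dexamethasone. Of 13 named, 9 never exceeded the negative control median, with Cd3e, Cd8a and Prf1 among them. Ighm did so on 3 of 6 vehicle and 0 of 6 dexamethasone arrays, and lost its call with values floored there (-0.18, adjusted p = 0.112) or with all probe sets fitted (0.0585). Of 11 tested mast cell, basophil and eosinophil markers, 2 rose and 1 fell, and the summed level was 9.93 to 10.14 and 10.16 to 10.43, with 8 of 14 below the negative control median throughout. Cpa3, a mast cell protease, rose by 0.64 and Mcpt8, a basophil protease, fell by 0.28, a call lost under 10 of 17 alternatives. Of 11 dendritic cell markers, 2 passed as higher, Clec9a (0.68) and Flt3 (4.75 ± 0.07 and 5.19 ± 0.10, never above the negative control median). The summed level was 12.66 to 13.20 and 13.14 to 13.81, beside 12.28 to 12.90 and 12.83 to 13.63 for Clec9a alone. Below the negative control median throughout were 6 of 11. Of 11 stromal and endothelial markers, 1 fell, Kdr, by 1.01, and the summed level was 12.42 to 12.64 and 12.23 to 12.35, with 8 of 11 below. Of 5 tested erythroid markers, 1 fell, the transferrin receptor Tfrc (-0.65), and 4 of 7 named were below. The summed level was 14.18 to 14.39 and 13.37 to 13.78, beside 14.14 to 14.35 and 13.27 to 13.71 for Tfrc alone. The part of these lists in the CC ligands' changes was likewise not tested.

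For each tested member, the genes whose log2 levels followed it most closely over the 12 arrays were taken. These arrays share 6 cultures and the treatment contrast, so a high Pearson r describes both and carries no test. Ccl2 was followed by Ltv1, a ribosome assembly factor (r = 0.967, change -0.36), the lipoprotein receptor Vldlr (0.967, change -0.40) and Gm9892 (0.966, change -0.27). Those 3 genes exceeded the negative control median throughout, and all 3 had fallen. Ccl5 was followed by H2-M6-ps (0.919), an immunoglobulin kappa variable segment (0.906) and 2310016D23Rik (0.886), and Ccl6 by Gm25641 (0.938), Mpzl1 (0.922) and Ffar1 (0.922). Of these 6, H2-M6-ps, Mpzl1 and Ffar1 were below the negative control median on 12 of 12 arrays. The closest gene was Tkfc for Ccl3 (0.926), Cldn2 for Ccl4 (0.885), Nfu1 for Ccl7 (0.896) and Gm12230 for Ccl9 (0.884). Among the members themselves, Ccl2 had r = 0.519 with Ccl6, 0.504 with Ccl7, 0.406 with Ccl5, 0.312 with Ccl4, -0.0042 with Ccl12, -0.16 with Ccl3 and -0.205 with Ccl9 over the same arrays. Over the 6 paired differences the order was another, from -0.765 with Ccl6 to 0.474 with Ccl3.

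The fall of Ccl2 passed the threshold under all 17 alternative settings, with changes between -0.75 and -0.66 and adjusted p between 7.3e-05 and 0.00346. The fall of Ccl5 passed under 15 of 17, and that of Ccl6 under 10 of the 16 settings that fitted it. In 1 of those 16, the floor, all but 1 of the Ccl6 values were replaced, so it could not test the fall. The CC ligands thus hold 1 fall that passed in each setting and 2 smaller ones that depended on the setting.

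**Figure D5:**
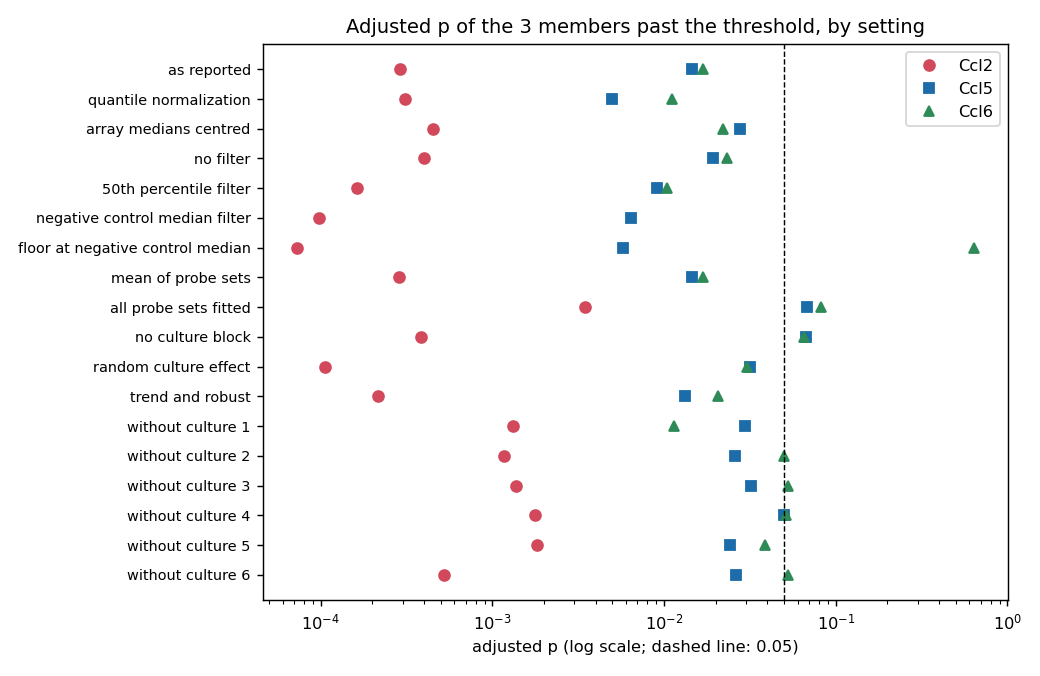
Adjusted p (log axis) of Ccl2, Ccl5 and Ccl6 in the reported fit and under 17 alternatives, with a dashed line at 0.05. Ccl2 stays left of the line throughout (at most 0.00346), Ccl5 crosses it under 2 settings and Ccl6 under 6.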

How the data were processed

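The deposited table holds log2 values for 72688 probe sets on 12 single-colour arrays. That scale was inferred from their range. How the authors corrected background, normalized and summarized was not given in the sources used here, and array medians lay so close (5.57 to 5.67) that the values were used as deposited. The number of arrays limits the precision. Symbols came from the platform's annotation, updated by gene number to RefSeq GRCm38.p6 (22818 of 30604 probe sets with 1 symbol matched). The brightest probe set of a gene, by its mean over 12 arrays, stood for it. Genes above the 25th percentile of their array on at least 6 of 12 arrays were tested (24265 of 30142).

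limma 3.58.1 in R 4.3.3 (lmFit, eBayes) compared dexamethasone with vehicle, two-sided, with culture as a block and Benjamini-Hochberg adjustment over all genes tested. The fit was also run on simulated data, in which genes varied independently and changes were larger than those of Ccl5 and Ccl6. That run does not show how the fit performs on changes as small as theirs. The block follows the treatment protocol in the labels, where each culture is split. Same-numbered arrays deviated together with r from 0.05 to 0.25 (mean 0.16). The mean of other pairs (-0.03) largely follows from centring each gene within its group, so it is no separate comparison. The vehicle arrays of cultures 2 and 3, however, were most like the dexamethasone array of culture 6. The 8 members and the gene lists were chosen with earlier results of these data known. Named were all members, up to 5 called genes per list, any other CC ligand or receptor, list genes that give a level for comparison, and per member the 3 (called) or 1 (other) most alike genes; Il1b, Tnf, Rela, Gnai2, Zfp36, Cnot7, Hnrnpd, Lcn2 and the dim markers lie outside that rule and were chosen after their values were seen. Alternatives were normalization, filters, a floor, probe set choice, the block, the variance model and leaving out each culture.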

Additional observations from a re-analysis of the deposited data

Results flagged for a closer look

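Each group of 6 arrays was examined for a highest or lowest array far from the other 5, for the members and the called list genes. Chance alone marks about 1 in 20 groups. Of 86 groups examined, 2 had such an array and 0 of those belonged to a CC ligand. Cxcl3 in dexamethasone was 7.66 in culture 1, against 8.11 to 8.25 in the other 5. Zc3h12c in vehicle was 10.85 in culture 4, against 10.98 to 11.05 in the other 5.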

How the results depend on the processing

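The change of Ccl2 kept its direction and its call under all 17 alternatives. The count of members lower, 3 as reported, was 1 without the culture block and 1 with all probe sets fitted, and 2 to 3 when a culture was left out. The count of members higher was 0 in each. Without the culture block as a replicate pairing, Ccl2 stayed at -0.70, while Ccl5 (-0.38, adjusted p = 0.067) and Ccl6 (-0.25, adjusted p = 0.0656) lost their calls. With all probe sets fitted, which adjusts over more features, Ccl5 (-0.38) and Ccl6 (-0.25) lost theirs too. With a floor at the negative control median, Ccl6 turned to 0.035 and the neutrophil marker Ltf to 0.0079, since most of their values then equal the floor. Ccl9 turned to -0.0047 after quantile normalization; the cause was not tested. Leaving out 1 culture gave -0.75 to -0.66 for Ccl2, -0.076 to 0.0024 for Ccl3 (above 0 without culture 1), -0.20 to -0.08 for Ccl4, -0.42 to -0.31 for Ccl5, -0.29 to -0.22 for Ccl6, -0.22 to -0.11 for Ccl7 and -0.0044 to 0.064 for Ccl9 (below 0 without culture 5). Ccl6 had no test under the filter at the negative control median, and Ccl4 and Ccl7 none under both stricter filters and the floor. Over all genes, calls numbered 1876 to 2334 without 1 culture, 1163 to 1520 higher and 711 to 853 lower, with fewest in all and higher without culture 3 and fewest lower without culture 6. Genes lower were 1738 after quantile normalization, 726 after median centring and 639 with all probe sets fitted. Background limits Ccl4, Ccl6, Ccl7 and Ccl12, whose signals lie near or below the negative controls.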
